A study of Sus scrofa with 4 samples.

Results

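The comparison described here sets one untransplanted pig kidney against another. One came from a GalT-/-;hCD39;hCD46;hCD55;TBM pig and the other from a GalT-/-;hCD39;hCD55 pig, called CD39/CD46/CD55/TBM and CD39/CD55 in the text. Both genotypes lack GalT, the galactosyltransferase that makes the alpha-Gal sugar antigen, and both carry human CD39, which degrades extracellular ATP and ADP, and human CD55, which restrains complement. CD39/CD46/CD55/TBM pigs carry in addition human CD46, another complement regulator, and thrombomodulin (TBM), which turns thrombin towards the anticoagulant protein C pathway. The series was made to choose between these donor genotypes by how well each eases rejection of a kidney placed in a non-human primate, and the untransplanted pair shows how far the kidneys lay apart without a graft. Members were all gene symbols with 10 or more counts in either of these libraries, 17089 of 26466 symbols. At the edge of that rule, 237 symbols were kept with a highest count of exactly 10 and 289 were left out with a highest count of 9. The other 2 of the 4 libraries, from a CD39/CD55 kidney 4 weeks and a CD39/CD46/CD55/TBM kidney 6 weeks after transplantation, are given beside the members as a second pair of the same genotypes. In that second pair, genotype and weeks after transplantation cannot be told apart.

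There was 1 library for each group, so no difference below has a replicate check, and none is shown to belong to the genotype rather than to the animal, the piece of tissue or the library. The sources used here do not give the promoters of the transgenes, the number of founder animals or the age, sex and feeding of the pigs. Counts are of pig genes, and the human transgenes were not analysed here. Pairs of counts are given in the order CD39/CD55, then CD39/CD46/CD55/TBM, and higher and lower mean higher and lower in the CD39/CD46/CD55/TBM kidney. Total counts were 14092905 and 13226372. The ratio of scaled counts is given on the log2 scale with its exact 95% interval. That interval covers counting error only, since each group has 1 library. Nothing is said of molecular identifiers, so reads may not be independent and the interval can be too narrow. The word called marks genes that differed 2-fold or more with an interval that left out a ratio of 1.

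The kidney filters blood in the glomerulus, whose podocytes wrap the capillaries, and recovers most of the filtrate in the proximal tubule, a segment that lives on fatty acid oxidation. Later segments adjust salt, water, acid and calcium. The proximal tubule also makes active vitamin D, with the enzyme CYP27B1, and destroys it, with CYP24A1. These functions answer to diet, hormones and blood flow, so kidneys of healthy animals can differ in them.

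Markers of the labelled tissue were high in both libraries. LRP2, the endocytic receptor megalin of the proximal tubule, had 23515 and 20999 counts, and its partner CUBN had 14021 and 11879. PODXL, a surface sialomucin of the podocyte, had 1792 and 1638, and the endothelial adhesion gene PECAM1 had 948 and 871. Of 14 listed urothelial symbols 5 were measured, among them GATA3, which principal cells also express. The 14 listed symbols summed to 71.3 and 84.1 scaled CPM (counts relative to the scaled library total), and 7 and 6 were at 0. GATA3, with 674 and 904 counts, made up the largest part of these sums and was not called. KRT7, which the RefSeq gene table gives as a noncoding transcript, was lower with 253 and 88 counts. A count of 0 allows up to 0.218 and 0.237 scaled CPM in these libraries, the value of 3 counts.

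The pig counterparts of the modified genes were counted first. GGTA1P, of which the RefSeq table gives GGTA1 as a synonym, had 291 and 316 counts. ENTPD1, the pig gene for CD39, had 286 and 278 counts, CD46 had 860 and 716, and CD55 had 39 and 28. THBD, the pig thrombomodulin gene, had 200 and 102 counts, a log2 ratio of -0.85 (-1.21 to -0.50). None of the 5 was called, and transcripts of a disrupted gene can still be counted, so these values do not check the labels. After transplantation THBD had 16 and 65 counts, a log2 ratio of 2.25 (1.47 to 3.17). Of 9 measured X-linked genes with a partner on Y, none was called, and their median log2 ratio was 0.12. Of 23 measured symbols placed on Y, 4 were higher (17.4%) and 2 lower (8.70%), beside 8.51% and 8.26% of all members. The sex of the pigs was not tested from these genes.

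Across all members, 2865 of 17089 were called, 16.8%, with 1454 higher (8.51%) and 1411 lower (8.26%). These percentages are the background for every list below. The log2 ratios had a median of -0.00, and 5% of members lay below -1.31 and 5% above 1.34. Within 2-fold lay 81.3% of members, and the Spearman correlation of the counts over the members, which share their library and depth, was 0.9527. The share called was 24.3% among 2772 symbols with a highest count of 10 to 29, and 11.1% among 4428 with 300 to 999. It was 15.6% among the 2667 with 1000 counts or more, where the interval reached 0.10 to either side in the median. Other pairs of libraries stood further apart: 22.7% of 17395 symbols were called between the transplanted kidneys. Between transplanted and untransplanted kidney of CD39/CD55 27.7% of 17417 were called, and for CD39/CD46/CD55/TBM it was 33.2% of 17386.

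**Figure D1:**
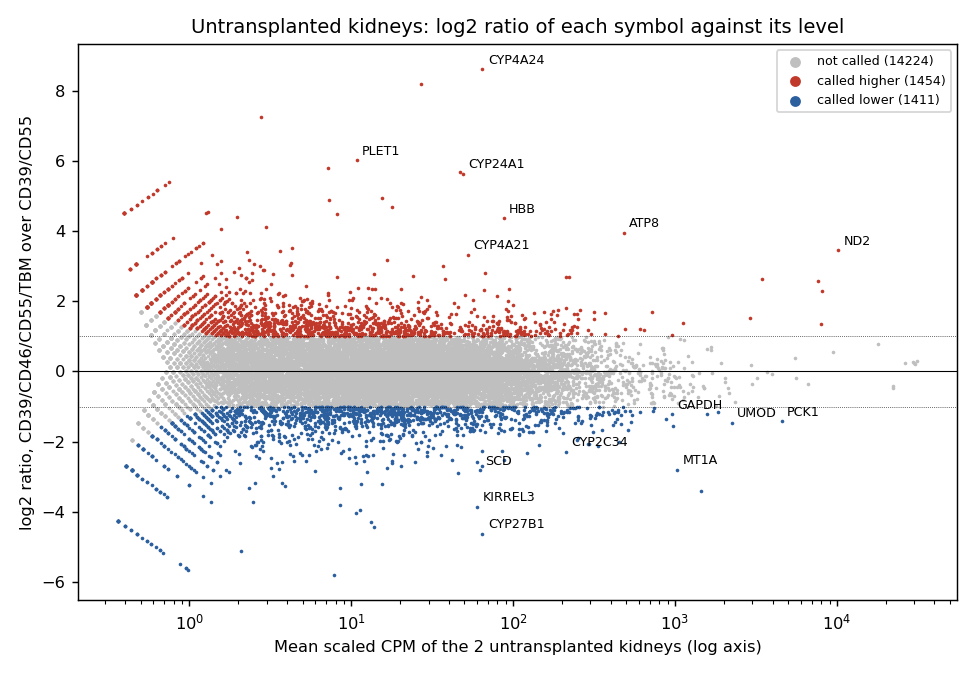
Log2 ratio of each of 17089 symbols (CD39/CD46/CD55/TBM over CD39/CD55, untransplanted) against its mean scaled CPM on a log axis. Grey points were not called, red points were called higher (1454) and blue points called lower (1411), and dotted lines mark 2-fold. CYP4A24 at 8.62 is the highest labelled gene and CYP27B1 at -4.63 the lowest.

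The ratios moved with a property of the genes that no biology list uses. Symbols were put in 10 groups of nearly equal number by genomic span. In the group with the shortest span, up to 4.86 kb, the median log2 ratio was -0.30, with 139 called higher and 295 lower. In the group with the longest span, from 178.7 kb, it was 0.32, with 205 higher and 21 lower. The median was higher in each next group, and the transplanted pair had the same order, from -0.50 to 0.54. Of 2246 long noncoding RNA symbols 449 were called higher and 161 lower, against 997 and 1235 of 14777 protein-coding symbols. Chromosomes differed as well: on chromosome 12, with a median span of 17.4 kb, 51 of 951 symbols were higher and 137 lower, while on chromosome 11, with 44.7 kb, 53 of 351 were higher and 9 lower. The part of span in the results below was not tested, but each list was also counted with the ratios centred on the median of genes of like span, and for counts of 3 or more given below the change is stated where it is over 1.5 times.

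**Figure D2:**
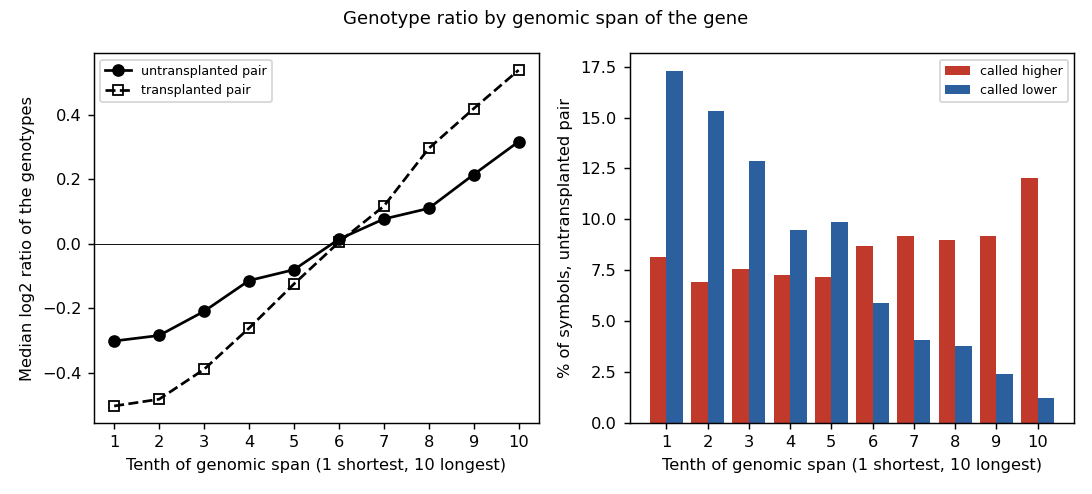
Genes in 10 groups of genomic span, from 1 (shortest) to 10 (longest). On the left are median log2 ratios of the genotypes in the untransplanted pair (filled circles, -0.30 to 0.32) and the transplanted pair (open squares, -0.50 to 0.54), and on the right the percentage of symbols called higher (red) and lower (blue) in the untransplanted pair, where lower calls go from 17.3% to 1.23%.

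The enzymes that make and destroy active vitamin D differed in opposite directions and were among the largest ratios of the pair. CYP27B1 (chromosome 5, 23053129 to 23058865 of Sscrofa11.1), which makes the active hormone, had 1704 counts in the CD39/CD55 kidney and 63 in the other. It was 24.7-fold lower in CD39/CD46/CD55/TBM, a log2 ratio of -4.63 (-5.03 to -4.28). CYP24A1 (chromosome 17, 55110546 to 55130328), which degrades the hormone and is induced by it, had 26 and 1221 counts and was 50.01-fold higher, a log2 ratio of 5.64 (5.11 to 6.29). The same order held in the transplanted pair, where CYP27B1 had 155 and 26 counts and CYP24A1 had 49 and 383. The vitamin D receptor gene VDR had 366 and 453 counts and was not called.

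Some genes of calcium transport in the distal nephron were higher as well. CALB1, which encodes the calcium carrier calbindin of the distal tubule, had 30 and 180 counts, a log2 ratio of 2.68 (2.14 to 3.31). S100G, a smaller calbindin, had 7 and 27, and the apical calcium channel TRPV5 had 226 and 475. Of these, TRPV5 was also higher in the transplanted pair, with 410 and 889 counts, while CALB1 had 57 and 36 there and S100G 9 and 12. TRPV6, a channel gene that overlaps TRPV5, had 28 and 29 counts, and ATP2B1, a basolateral calcium pump, had 1980 and 2180, and neither was called. SLC8A1, the basolateral sodium calcium exchanger, had 842 and 2238 counts and a log2 ratio of 1.53 (1.41 to 1.64). On the vitamin D and calcium list 4 of 14 measured genes were higher and 1 lower, with a median log2 ratio of 0.34 against -0.00 over all members. PTH1R, the parathyroid hormone receptor, had 5985 and 3387 counts (log2 ratio -0.70) and KL, the coreceptor of the phosphate hormone FGF23, had 363 and 520 (0.64), and neither was called.

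Genes of cholesterol and fatty acid synthesis, which the transcription factors SREBF1 and SREBF2 switch on when sterols are scarce, were lower in part in the CD39/CD46/CD55/TBM kidney. Of 26 measured members 14 were called lower (53.8%) and none higher, beside 8.26% and 8.51% of all members. Their median log2 ratio was -1.07, and 20 of 26 lay below 0. SCD, the desaturase that makes monounsaturated fatty acids, had 1499 and 196 counts, a log2 ratio of -2.81 (-3.04 to -2.60). FASN, the fatty acid synthase, had 827 and 147. In the mevalonate pathway MVD had 423 and 64 counts and MVK had 353 and 71. Further along the sterol pathway SQLE had 427 and 109, LSS 348 and 109, CYP51 593 and 214, NSDHL 185 and 53 and DHCR7 67 and 19.

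The regulators of that pathway lay on the same side. SREBF2 had 955 and 370 counts, a log2 ratio of -1.25 (-1.43 to -1.08), SREBF1 had 212 and 90, and INSIG1, a sterol-responsive inhibitor of SREBF processing, had 554 and 199. HMGCS1, with 886 and 401 counts, was close to the 2-fold line and is not called when ribosomal and mitochondrial counts are left out of the totals or when span is centred. Some members did not share the direction: FDFT1 had 1053 and 1135 counts and ACACA had 184 and 181. Between the transplanted kidneys 6 of the 26 were called lower and none higher, with a median of -0.46. There SCD had 999 and 278 counts, FASN 453 and 116 and SREBF1 505 and 120, whereas SQLE had 262 and 194 and LSS 204 and 230.

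The CYP4A genes, which encode fatty acid omega-hydroxylases and are classical targets of the fasting-activated receptor PPAR alpha, were far higher in the CD39/CD46/CD55/TBM kidney. CYP4A24 (chromosome 6, 164496928 to 164518189) had 4 and 1631 counts. This 393-fold difference, a log2 ratio of 8.62 (7.43 to 10.67), was the largest of any gene with a name and a count in both libraries. CYP4A21 (chromosome 6, 164672488 to 164715639) had 131 and 1214 counts, a log2 ratio of 3.32 (3.07 to 3.60). Between and beside them lie provisional genes that were also higher. LOC100627285 had 18 and 438 counts, LOC110255311 had 2 and 676, with a log2 ratio of 8.20 (6.66 to 11.57), and LOC100737897 had 24 and 1162. Of 6 measured symbols in this stretch 5 were higher. The exception was LOC100523909, with 12 and 8 counts. Summed over the stretch the counts were 194 and 5130, and in the transplanted pair 79 and 515. CYP4A24 had 4 and 253 counts there, a log2 ratio of 6.07 (4.87 to 8.13). These genes resemble each other, so how the reads were divided among them is uncertain.

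Other genes of fatty acid use went both ways. On the list of fatty acid oxidation and fasting 8 of 33 members were higher and 4 lower, and the median was 0.05. CYP4A24 and CYP4A21, described above, are on this list too and are among the 8. CPT1A, the gatekeeper of fatty acid entry into mitochondria, had 1026 and 2493 counts, a log2 ratio of 1.40 (1.29 to 1.505). The dehydrogenase gene ACADL had 699 and 1432 counts, the thiolase gene ACAA2 had 103 and 273, and PPARA itself 30 and 57. CREB3L3, a fasting-induced transcription factor, had 56 and 271 counts, and VNN1, a pantetheinase known as a PPAR alpha target, had 40 and 128. Both were on the other side in the transplanted pair, with 49 and 0 counts for CREB3L3 and 86 and 3 for VNN1. The lower members were BDH1 (767 and 216), which interconverts ketone bodies, HADH (8325 and 3560), ECI1 (2464 and 1124) and ANGPTL4 (1723 and 777). ECI1 and ANGPTL4 are not called with span centred or without ribosomal and mitochondrial counts, and ECI1 overlaps E4F1, which had 2473 and 1104 counts. PDK4, another fasting-induced gene, had 8574 and 5345 counts and was not called.

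ACSM5, an acyl-CoA synthetase gene outside the lists, had 13 and 380 counts, a log2 ratio of 4.93 (4.20 to 5.91), and 9 and 31 in the transplanted pair. PCK1, the gluconeogenic enzyme and one of the most counted genes of both kidneys, had 90982 and 31480 counts, a log2 ratio of -1.41 (-1.43 to -1.40). Transplanted kidneys had 47943 and 2834.

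Drug-metabolizing enzymes were more often lower than higher. Of 34 measured members 7 were lower (20.6%) and 3 higher, and those 3 were CYP24A1, CYP4A21 and CYP4A24, which are described above. CYP27B1, also described above, is among the 7. The median was -0.50. CYP2C34 (chromosome 14, 106285170 to 106327579), a member of the main xenobiotic P450 family, had 4811 and 910 counts, a log2 ratio of -2.28 (-2.39 to -2.18). Its neighbours CYP2C32 and CYP2C49 had 295 and 51, and 357 and 93. LOC110255181, which lies between CYP2C32 and CYP2C49, stood on the other side, with 97 and 348 counts. After transplantation all 4 were called lower, and CYP2C49 had 519 and 4 counts. FMO1, a flavin monooxygenase, had 4879 and 1836 counts, and AKR1A1, an aldehyde reductase, had 8635 and 3130.

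**Figure D3:**
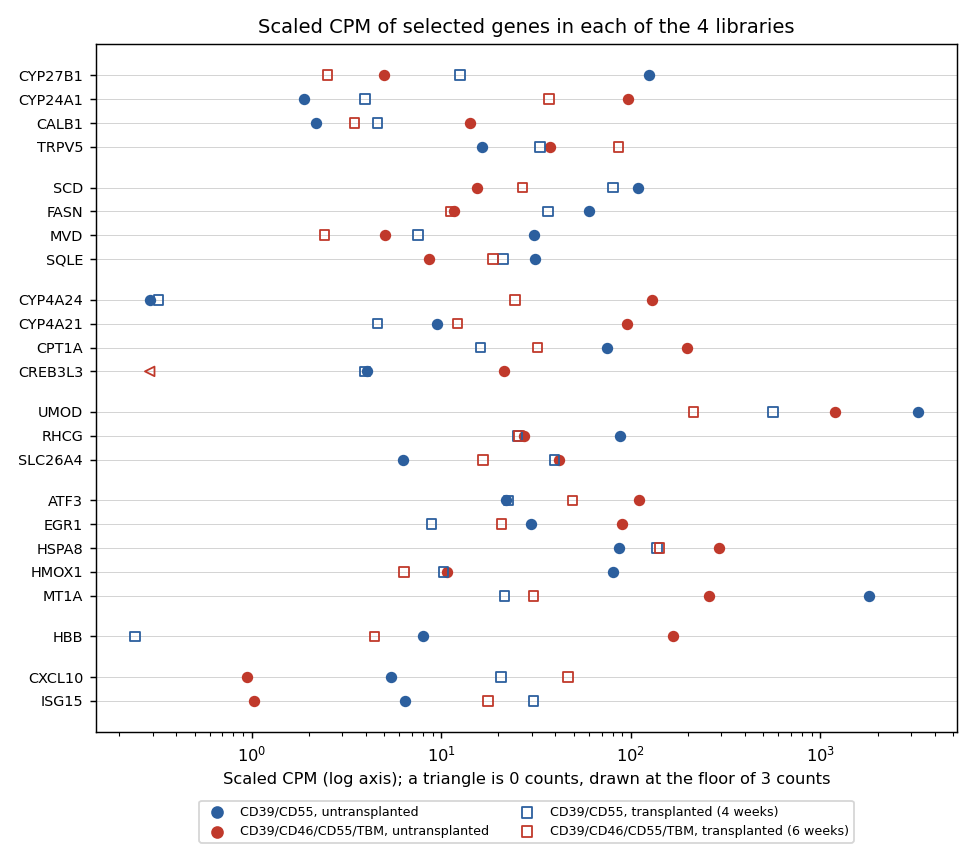
Scaled CPM (log axis) of 23 selected genes, 1 point for each of the 4 libraries: filled circles are untransplanted and open squares transplanted kidneys, blue is CD39/CD55 and red CD39/CD46/CD55/TBM. For CYP27B1 and SCD the red point lies left of the blue one in both pairs, for CYP24A1 and CYP4A24 it lies right in both, and for CXCL10 and SLC26A4 the order of the colours differs between the pairs.

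ACE, the enzyme that makes angiotensin II, was lower, with 610 and 243 counts, and had 139 and 37 in the transplanted pair. The angiotensin receptor gene AGTR1 had 333 and 292 counts and was not called.

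Nephron segments were compared by their marker lists. In bulk tissue, fewer cells of a type and less RNA per cell cannot be told apart, and the sources used here do not say which part of the kidney was sampled. Proximal tubule genes were close to the background, with 2 of 46 higher, 4 lower and a median of -0.13. The higher members were the anion transporter SLC22A6 (272 and 543) and the sulfate transporter SLC13A1 (1366 and 2714). The lower ones were PCK1, the brush border enzyme GGT1 (1405 and 214), BHMT (4961 and 1761) and SLC17A3 (375 and 150), which overlaps SLC17A2. In the straight part of the tubule SLC7A13 had 143 and 525 counts and SLC6A18 had 2199 and 942.

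In the thick ascending limb 4 of 20 measured genes were lower (20.0%) and none higher, with a median of -0.38. UMOD, which encodes uromodulin, the most abundant protein of urine, had 45070 and 15092 counts, a log2 ratio of -1.46 (-1.49 to -1.43). It had 6945 and 2214 in the transplanted pair (-1.39). CLDN16, a tight junction gene needed for magnesium uptake, had 231 and 78 counts but 104 and 215 after transplantation. SLC12A1, the salt cotransporter that defines the segment, had 1232 and 1499 counts and was not called. With 50 counts required in either library, 2 members were lower.

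Distal segments leaned the other way. Among distal convoluted and connecting tubule genes 4 of 15 were higher (26.7%) and none lower. These 4 were CALB1, S100G, TRPV5 and SLC8A1, the calcium transport genes given above, while SLC12A3, which defines the distal convoluted tubule, had 2934 and 3094 counts. Principal cell genes had 4 of 15 higher, 1 lower and a median of 0.54. SCNN1G, a subunit of the aldosterone-regulated sodium channel, had 106 and 354 counts, a log2 ratio of 1.85 (1.54 to 2.18), and HSD11B2, which shields the mineralocorticoid receptor from cortisol, had 11 and 34. AQP2, the vasopressin-regulated water channel, had 14 and 27 counts and is not called with a 99% interval. FXYD4 was lower, with 350 and 138. Its call is lost with span centred.

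Intercalated cells, which handle acid and base, had 2 of 19 genes higher and 2 lower. SLC26A4, the chloride bicarbonate exchanger pendrin of the base-secreting type, had 86 and 526 counts, a log2 ratio of 2.72 (2.40 to 3.08). The ammonia channel genes RHCG (1197 and 346) and RHBG (440 and 128) were lower, with log2 ratios of -1.67 and -1.66. SLC4A1, the exchanger of the acid-secreting type, had 567 and 295 counts and was not called. After transplantation SLC26A4 had 490 and 172 counts, the opposite order, while RHCG had 312 and 267 and RHBG 170 and 179.

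Podocyte genes had 5 of 24 higher and none lower, with a median of 0.36. The list has a long median span of 95.5 kb, and with span centred 3 were higher. MAGI2, a scaffold of the filtration slit, had 509 and 1875 counts (log2 ratio 2.00, interval 1.86 to 2.14) and lies over a provisional gene with 933 and 1735. The transcription factor gene LMX1B had 87 and 192. The defining members did not go together: NPHS1, which encodes nephrin, had 232 and 116 counts, and PODXL had 1792 and 1638, and neither was called.

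Metallothioneins, small proteins that bind zinc and copper and are induced by metals, glucocorticoids and fasting, were lower in part. MT1A (chromosome 6, 18672016 to 18673673) had 24661 and 3259 counts, a log2 ratio of -2.80 (-2.86 to -2.75). LOC102166944 next to it had 36423 and 3153 counts, and MT-2B had 19963 and 6267. MT1D had 24001 and 16075 counts (-0.46) and was not called. Its counts were nearly those of the overlapping LOC110260926, with 24012 and 16086. Over the stretch 4 of 7 symbols were lower, and the summed counts were 130079 and 45152. Reads shared by MT1D and LOC110260926 can enter this sum more than once, and without LOC110260926 it was 106067 and 29066. Transplanted kidneys had sums of 2739 and 2924 over the stretch, and 2227 and 2709 without LOC110260926. MT1A had 267 and 317 counts there. HMOX1, the heme-degrading enzyme induced by heme and oxidants, was lower as well, with 1102 and 135 counts and a log2 ratio of -2.91 (-3.18 to -2.65).

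Red cell transcripts were higher in part: 3 of 5 measured list members, HBB, HBM and ALAS2, were called higher and none lower, while EPB42 (62 and 48) and HEMGN (29 and 41) were not called. HBB (chromosome 9, 4800683 to 4801941), the beta globin gene, had 110 and 2114 counts, a log2 ratio of 4.38 (4.11 to 4.67). LOC110259958 and LOC100737768, provisional genes beside HBM in the alpha globin region, had 113 and 834, and 144 and 829. HBM had 0 and 14 counts and was at least 5.06-fold higher, and ALAS2, which makes heme in red cell precursors, had 12 and 33. Globin symbols together took 0.00267% of counts in CD39/CD55 (exact 95% interval 0.00241% to 0.00295%) and 0.0302% in CD39/CD46/CD55/TBM (0.0292% to 0.0311%). The 9 red cell list symbols present in the data, measured or not, summed to 15.9 and 179 scaled CPM, with 2 of 9 at 0 in each library. How much blood the tissue held was not recorded, and the part of blood in the other results was not tested.

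Immediate early genes, which cells switch on within minutes of a stimulus, were higher in part. Of 26 measured members 8 were higher (30.8%) and 1 lower, with a median of 0.42. The median span of the list was 4.32 kb, and with span centred 9 were higher and none lower. ATF3, a stress-induced repressor, had 300 and 1398 counts, a log2 ratio of 2.34 (2.16 to 2.52). EGR1 had 408 and 1133, NR4A2 had 765 and 2165, FOSB had 31 and 113 and the phosphatase gene DUSP1 had 523 and 1121. FOS itself had 19 and 27, and JUN, with 2068 and 2846, was not called. IER3 was lower, with 5266 and 2350 counts, a call that is lost with span centred or without ribosomal and mitochondrial counts. Of these, ATF3 (280 and 509), EGR1 (110 and 215) and FOSB (1 and 10) had the same order in the transplanted pair, and NR4A2 (635 and 333) did not.

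Heat shock genes, which encode chaperones for misfolded proteins, had 5 of 16 members higher (31.2%) and none lower, with a median of 0.46. HSPA8, the constitutive chaperone, had 1184 and 3673 counts, a log2 ratio of 1.75 (1.66 to 1.85), and its partner DNAJA1 had 1146 and 2644. HSPD1, of mitochondria, had 2187 and 4288. HSPA1L had 2038 and 6110 counts and overlaps LOC100624113, with 1301 and 4174, so reads of these cannot be told apart. The abundant HSP90AB1 (14855 and 12027) and HSPB1 (691 and 627) were not called. In the transplanted pair HSPA8 had 1697 and 1464 counts and HSPD1 had 1535 and 760.

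Glycolysis and hypoxia genes were lower in part, with 5 of 23 lower (21.7%), none higher and a median of -0.47. The 5 lower members, given next, all act in glycolysis or glucose uptake. GAPDH had 18331 and 7223 counts, with a log2 ratio of -1.23 (-1.27 to -1.19). It overlaps IFFO1, which had 17422 and 6226, so reads of these genes cannot be told apart, and the call of GAPDH is lost with span centred. ALDOA had 2261 and 822 counts, ENO1 3727 and 1565 and PKM 3361 and 1446. SLC2A1, a glucose transporter, had 712 and 232. The hypoxia-induced genes VEGFA (523 and 493) and CA9 (32 and 28) were not called. Other uncalled members lay on both sides of 0. ADM had 648 and 1009 counts (log2 ratio 0.76) and NDRG1 4991 and 7102 (0.63), while BNIP3 had 2845 and 1854 (-0.50). In the transplanted pair PKM had 1828 and 3704 counts and ALDOA had 1919 and 2448.

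Of 24 tubular injury and repair genes 6 were lower and 1 higher. HMOX1 is one of the 6. The others were KRT19 (820 and 329), CDKN1A (136 and 49), TIMP1 (156 and 67), LCN2 (42 and 19) and GDF15 (23 and 3). With span centred 4 were lower, and KRT19, TIMP1 and LCN2 were among the calls lost. The higher member was the stress gene NUPR1, with 180 and 536 counts, which overlaps a noncoding symbol with almost the same counts. SPP1, which encodes osteopontin, had 877 and 597 counts and was not called.

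Interferon response genes were lower in part. Of 34 measured members 8 were lower (23.5%, beside 8.26% of all members) and 2 higher, and the median was -0.36. CXCL10, a chemokine that draws T cells, had 75 and 12 counts, a log2 ratio of -2.48 (-3.54 to -1.64), and lies within ART3, with 111 and 50. The ubiquitin-like modifier ISG15 had 88 and 13 counts, IRF1 had 185 and 54 and HERC5 had 104 and 35. IFIH1, a sensor of viral RNA, was higher with 46 and 97. Members that were not called included IFI6 (354 and 348) and MX1 (101 and 83). With 50 counts required in either library, 4 were lower. In the transplanted pair CXCL10 had 256 and 481 counts and IRF1 131 and 326, the opposite order, and ISG15 had 379 and 182.

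Class II antigen presentation genes were lower in part. Of 10 measured class II genes 4 were lower (40.0%) and none higher, and with span centred 2 were. CD74, the invariant chain, had 1191 and 391 counts, a log2 ratio of -1.49 (-1.66 to -1.32). The peptide loading genes SLA-DMA (401 and 167) and SLA-DMB (316 and 95) were lower and overlap BRD2, which had 3139 and 1363. The abundant genes of the class II molecules themselves were not called: SLA-DRA had 1612 and 1335 counts, SLA-DRB1 769 and 974, SLA-DQA1 1245 and 1000 and SLA-DQB1 1044 and 955. Class I had 2 of 18 lower and 1 higher. The lower ones were TAPBP (1295 and 592) and SLA-7 (133 and 58), whose calls are lost with span centred or without ribosomal and mitochondrial counts, and the higher one was SLA-5, with 2 and 19 counts (3.08, interval 1.31 to 6.51). SLA-1, a main class I gene that shares sequence with SLA-2 and SLA-3, had 12382 and 6942 counts, and B2M, its light chain, had 4152 and 4273.

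Complement and clotting, the systems that the transgenes act on, went both ways. Of 28 complement genes 4 were higher and 2 lower, with a median of -0.15. CFB, a component of the alternative pathway, had 82 and 18 counts, and C8B had 99 and 38, while the lectin pathway protease MASP2 had 43 and 104 and the inhibitor C4BPA 55 and 120. Of 28 coagulation genes 1 was higher and 4 lower. TFPI2, a protease inhibitor, had 1142 and 398 counts and overlaps GNGT1, with 1211 and 448. F8, with 626 and 286, loses its call without ribosomal and mitochondrial counts, and FGG had 85 and 26. PROC, which encodes the protein C that thrombomodulin helps to activate, had 822 and 380 counts, a log2 ratio of -0.99 (-1.17 to -0.82), just short of the 2-fold line. Its receptor gene PROCR had 1 and 10 counts (2.92, interval 0.63 to 8.88). Of 26 genes of extracellular nucleotides and adenosine, the substrates and products of CD39, 1 was lower, the nucleotide receptor gene P2RY2 with 58 and 13 counts.

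Immune cell markers were counted in both kidneys. Macrophage and monocyte genes summed to 317 and 267 scaled CPM, with 2 of 21 higher and none lower. CTSS (1078 and 534) and GPNMB (1049 and 731) had the most counts among them in both kidneys and were not called. The sums depend most on these genes, so the lower sum does not show a fall across the list. Of the 21 members, 9 had a log2 ratio above 0 and 12 below. FCGR3A, an Fc receptor, had 160 and 330 counts, and LYZ had 21 and 43. The defining C1q genes C1QA, C1QB and C1QC had 249 and 121, 136 and 152, and 152 and 158, and were not called. T and NK cell genes summed to 32.7 and 38.4 scaled CPM with 2 of 10 lower, NKG7 (58 and 25) and GZMB (23 and 6), and CD3E had 4 and 5 counts. CD247 made up the largest part of these sums, with 235 and 331 counts, and was not called. The median log2 ratio of the T and NK cell list was -0.37. Neutrophil genes summed to 4.73 and 5.53. RGS1, a signalling regulator of activated leukocytes, had 48 and 304 counts, a log2 ratio of 2.77 (2.34 to 3.25), and SH2D1B, an adaptor of NK cells, had 9 and 100. SH2D1B overlaps C4H1orf226, with 404 and 833.

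Stromal genes were lower in part. Of 28 fibroblast and matrix genes 6 were lower (21.4%) and 2 higher, and the median was -0.58. COL3A1, a fibrillar collagen, had 1644 and 660 counts, a log2 ratio of -1.20 (-1.33 to -1.07). FBLN1 had 1013 and 364, BGN 989 and 361 and COL6A3 370 and 128. COL1A1, with 3970 and 1844 (-0.99), was just short of the 2-fold line. SPARC was higher, with 111 and 266 counts, and overlaps LOC110257252, with 5683 and 2846. Among endothelial genes 4 of 29 were lower and 1 higher. ENG had 454 and 195 counts and ICAM1 had 368 and 142, while PECAM1 (948 and 871), CDH5 (209 and 127) and VWF (71 and 54) were not called. Of 18 smooth muscle and pericyte genes 1 was lower: the pericyte proteoglycan gene CSPG4 had 220 and 14 counts, a log2 ratio of -3.81 (-4.75 to -3.08), and 87 and 9 in the transplanted pair. ACTA2, the main smooth muscle marker, had 1597 and 965.

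**Figure D4:**
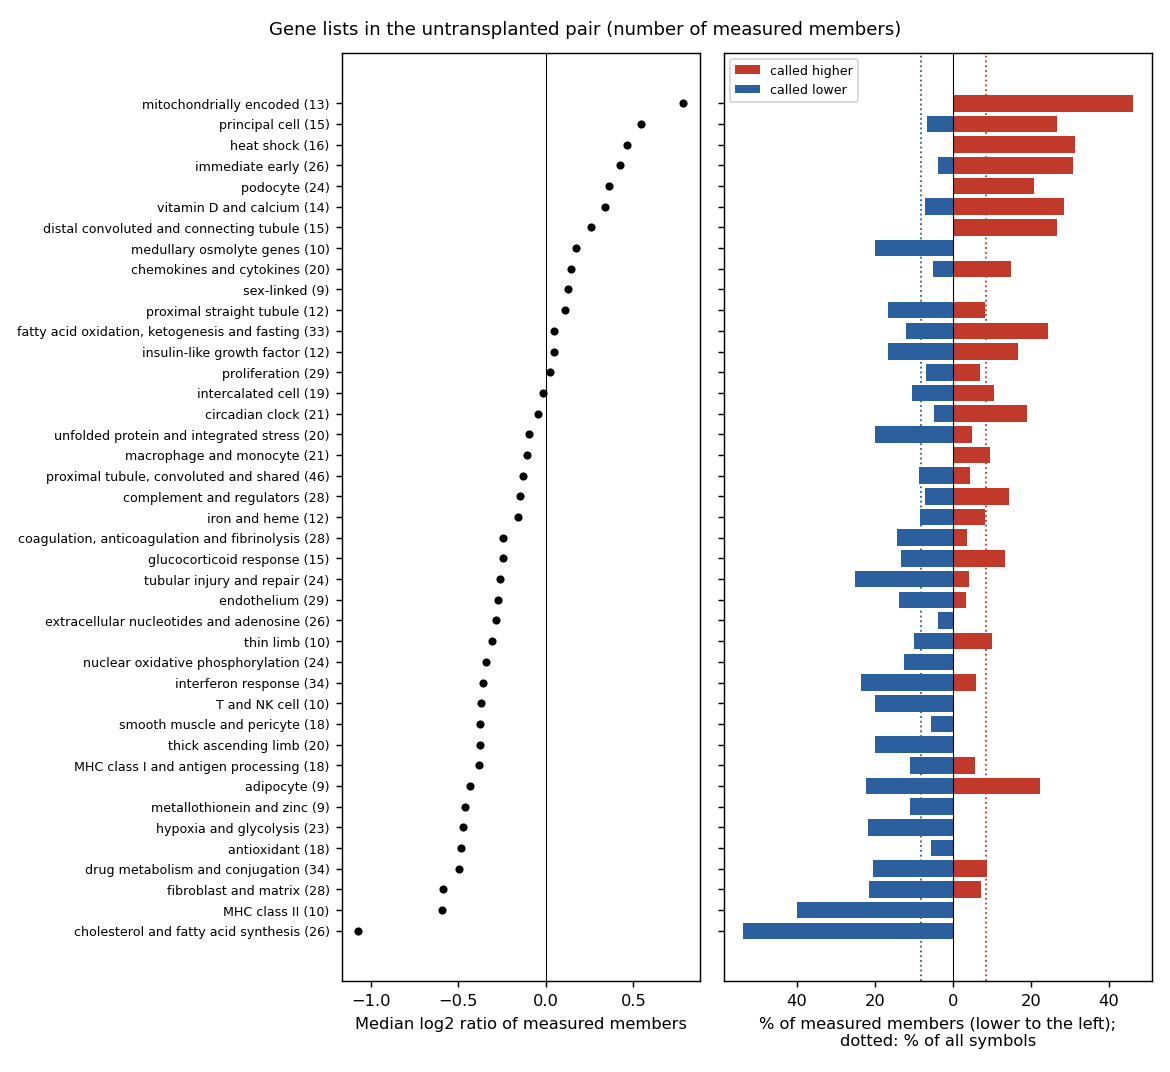
Gene lists of the untransplanted pair with at least 8 measured members (number in brackets), 1 list left out. Points on the left are median log2 ratios, from -1.07 for cholesterol and fatty acid synthesis to 0.79 for mitochondrially encoded genes, and bars on the right are the percentage of members called higher (red, to the right) and lower (blue, to the left), with dotted lines at 8.51% and 8.26% of all members.

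Genes of the mitochondrial genome differed from each other within 1 molecule. Together the 13 genes took 10.63% and 15.004% of counts, and 6 were higher with none lower. ND2, a subunit of complex I, had 23133 and 235440 counts, a log2 ratio of 3.46 (3.45 to 3.48). ATP8, a subunit of the ATP synthase, had 800 and 11451, ND6 had 13026 and 74886, and ND1 had 37809 and 169406. ND3 and ND5 had 61514 and 146339, and 20540 and 54329. COX3, with 354921 and 234778 counts, and ND4, with 347192 and 239600, lay on the other side of 0. ATP6 (328102 and 359771) and COX1 (24040 and 26428) differed by less than 1.5-fold. The 6 higher genes took 1.11% and 5.23% of counts, and 0.769% and 5.22% in the transplanted pair, where ND2 had 19469 and 182090. ATP8 overlaps ATP6, and ND6 overlaps ND5. Nuclear genes of oxidative phosphorylation had 3 of 24 lower and none higher: COX5B (10718 and 3671), NDUFB8 (2969 and 1215) and NDUFS7 (2385 and 998), of which the last pair lose their calls with span centred.

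Other genes with large ratios belonged to no list. Among named genes with at least 100 counts in the higher kidney, PLET1, an epithelial surface gene, had 4 and 270 counts, a log2 ratio of 6.03 (4.82 to 8.08). TMEM71 had 6 and 178 and shares its place with LOC102161379, with 3 and 178. OSER1, an oxidative stress responsive gene, had 229 and 1492, and SYT16 had 811 and 4816. In the other direction SLC7A5, a symbol usual for an amino acid transporter but listed by RefSeq as a noncoding transcript, had 361 and 15 counts, a log2 ratio of -4.43 (-5.32 to -3.73). KIRREL3, of the nephrin family, had 1546 and 98 (-3.86, interval -4.17 to -3.57), and TREH, the brush border trehalase, had 213 and 19. HPD, an enzyme of tyrosine breakdown, had 144 and 18, and the cathepsin gene CTSZ had 1521 and 218 and overlaps NELFCD, with 1109 and 370. KIRREL3 (772 and 73), HPD (728 and 67), CTSZ (269 and 65) and OSER1 (195 and 699) had the same order in the transplanted pair, and PLET1 (54 and 16) did not.

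There were 49 members with no count in 1 of the kidneys. The homeobox gene HMX2 had 0 and 70 counts and was at least 25.3-fold higher, and UNC5A, KRT12 and MEX3A had 0 and 16, 14 and 13. HRASLS5 had 26 and 0 counts and was at least 7.99-fold lower, and EPOP had 16 and 0. HMX2 had 86 and 28 counts in the transplanted pair, HRASLS5 76 and 10, and EPOP 14 and 43. Transcripts of these 3 were thus counted in kidneys of both genotypes.

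The 2865 called genes were then set beside the transplanted pair, which shares no library with the untransplanted one. There, among 16316 symbols measured in both pairs, 21.5% were called, 10.4% higher and 11.1% lower. Of 1315 that were higher in the untransplanted pair and measured in the other, 341 were higher (25.9%) and 88 lower (6.69%), and 71.1% had a log2 ratio above 0. Of 1279 that were lower, 335 were lower (26.2%) and 74 higher (5.79%). Among the 13722 that were not called, 1285 were higher (9.36%) and 1391 lower (10.1%). Most of the called genes were thus not called in the transplanted pair. The order of the ratios by genomic span was common to both pairs, and its part in these counts was not tested.

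**Figure D5:**
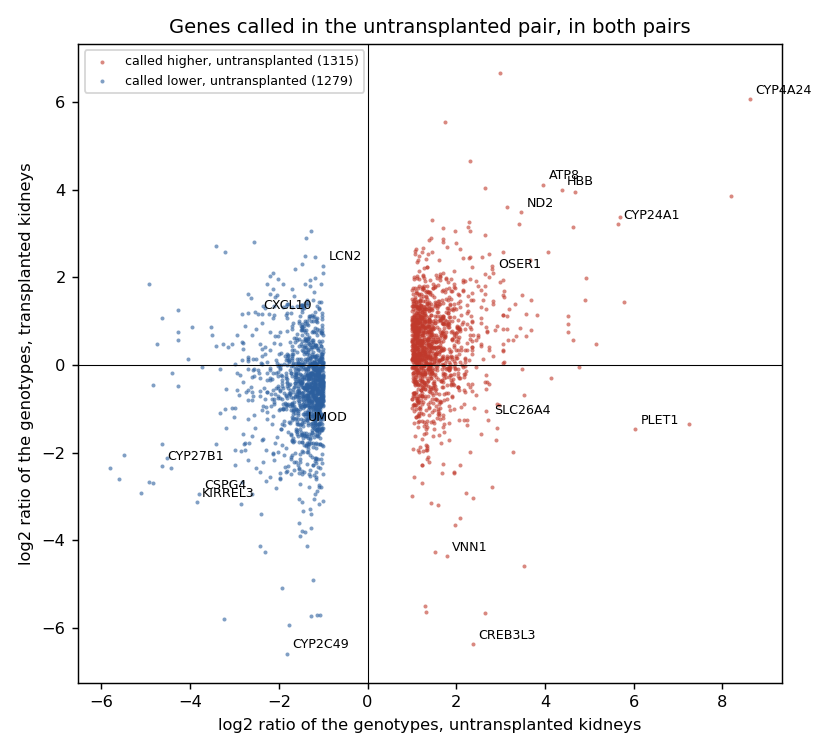
Log2 ratio of the genotypes in the transplanted pair against that in the untransplanted pair, for genes called higher (red, 1315) or lower (blue, 1279) in the untransplanted pair and measured in both. CYP4A24, CYP24A1 and ND2 lie high in both and CYP27B1 and KIRREL3 low in both, while SLC26A4 and PLET1 lie in the quadrants of opposite order.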

How the data were processed

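RNA of 4 pig kidneys was sequenced, 1 library for each of 4 groups taken from the sample titles. The deposited values are raw counts, 26965 lines in each file, with no normalization by the authors. Per the labels' protocols, extraction used phenol and chloroform, and a Lexogen QuantSeq kit made the libraries. Per the submitters' processing notes, Bowtie2, bedtools and the build Sscrofa11.1 were used. The sources used here give no versions and do not say how strand or reads that match several genes were treated, so overlapping genes and near copies can share reads. Lines of the 81 repeated symbols were summed, and all 26466 symbols matched the RefSeq gene table of Sscrofa11.1, from which places are taken (17059 of 17089 members have a single place).

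Totals were scaled by TMM factors (edgeR 4.0.16, R 4.3.3) over 4 libraries, 0.975 and 0.957 in the untransplanted CD39/CD55 and CD39/CD46/CD55/TBM kidneys and 1.07 and 1.00 in the transplanted ones. The log2 ratio used a prior count of 0.5 and an exact 95% conditional binomial interval (Clopper-Pearson, scipy 1.17.1), and the code was tested on simulated data. With 1 library a group there is no test and no p-value. A gene with no count in 1 library is given as a bound against 3 counts in that library.

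Members and gene lists were chosen with earlier results of these data known, so no list is independent evidence. Named genes are the 15 largest and 15 smallest ratios with at least 100 counts in the higher library, up to 5 a direction with no count in 1 library, the 10 most abundant, the called members of each list with at least 50 counts and the first 3 of each list, the modified and sex-linked genes, and up to 5 LOC symbols a direction. Some genes outside that rule were named after their values were seen: chromosomal neighbours and overlapping genes of named genes, and uncalled or weakly counted list members such as S100G, PTH1R, KL, FDFT1, ACACA, PDK4, HSD11B2, AGTR1, TRPV6, ATP2B1, SLA-DQA1, SLA-DQB1, EPB42, HEMGN, JUN, HSPB1, HSP90AB1, LYZ, GZMB, SLA-5, GDF15, ALAS2, COX1 and CD3E. Some genes are not reported here. Alternatives were other scalings (DESeq2 1.42.0 size factors, TMM of the 2 libraries alone, total counts with and without ribosomal and mitochondrial counts), filters, fold thresholds, a 99% interval, a prior count of 2 and repeated symbols left out.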

Additional observations from a re-analysis of the deposited data

Results flagged for a closer look

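These genes were called one way between the untransplanted kidneys and the other way between the transplanted kidneys. The difference between the pairs was not tested, since each has 1 library a side, and genotype and weeks after transplantation cannot be told apart in the transplanted pair. Values are log2 ratios of CD39/CD46/CD55/TBM over CD39/CD55, first untransplanted, then transplanted.

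Genes of kidney transport were among them. SLC26A4 went from 2.72 to -1.25, CLDN16 from -1.44 to 1.30 and AQP2 from 1.04 to -2.55, the last on 2 to 27 counts a library. Immune and injury genes were IRF1 (-1.65 and 1.57), CXCL10 (-2.48 and 1.17) and LCN2 (-1.01 and 2.27). Metabolic genes were CREB3L3 (2.38 and -6.37), VNN1 (1.78 and -4.37), CIDEA (-1.18 and 1.98), PKM (-1.10 and 1.28) and IGFBP2 (-1.21 and 1.67). For CREB3L3, which had 49 and 0 counts after transplantation, -6.37 depends on the prior count and the upper end of the interval is -3.42. The clock gene ARNTL had -1.21 and 1.12. The remaining genes were PLET1 (6.03 and -1.47), HMX2 (0 and 70 counts, then a log2 ratio of -1.34), EPOP (16 and 0 counts, then 1.84) and LOC110256043 (-4.28 and 1.25).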

How the results depend on the processing

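The counts of 1454 genes higher and 1411 lower depended on the thresholds: 852 were higher with 50 or more counts required, 2943 higher and 3047 lower at 1.5-fold, and 560 and 476 at 3-fold. Genes called the same way in both pairs, 341 higher and 335 lower, became 185 higher with 50 or more counts, 1028 and 1162 at 1.5-fold, and 83 and 71 at 3-fold. Members of the lists called lower at 1.5-fold were 7 of the thick ascending limb, 14 fibroblast and matrix, 8 hypoxia and glycolysis and 14 drug metabolism, and 8 podocyte genes were higher. At 3-fold they were 0, 0, 0 and 4, with 1 podocyte, 2 distal tubule, 5 immediate early, 2 heat shock and 4 fatty acid oxidation genes higher, and 1 class II, 2 injury and 8 cholesterol and fatty acid synthesis genes lower. With 50 or more counts 2 thick ascending limb and 4 interferon genes were lower. Ratios centred on genomic span and protein-coding symbols alone were chosen after seeing the data. With span centred 1452 were higher and 1160 lower, with 3 podocyte genes higher and 2 class II genes lower, and 28 of 294 named genes lost their call. Protein-coding symbols alone gave 997 and 1235. The scalings gave 1388 to 1703 higher and 1205 to 1499 lower, and no named gene reversed. No paired analysis was possible because each group has 1 library, and for the same reason no replicate could be left out. Depth limits the 2772 symbols with a highest count of 10 to 29, whose interval reached 1.30 to either side in the median, on the log2 scale.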

Other observations

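Genes of the circadian clock, which set the daily rhythm of kidney transport, had 4 of 21 members higher and 1 lower. ARNTL, the clock's activator, had 96 and 38 counts (CD39/CD55, then CD39/CD46/CD55/TBM), with a log2 ratio of -1.21 (-1.80 to -0.66). NR1D2, a repressor of ARNTL, had 179 and 368, PER3 had 292 and 640 and BHLHE41 had 41 and 128. RORA had 2452 and 5099, and its call is lost with span centred. PER1, with 1343 and 1083 counts, was not called. The sources used here do not give the time of day of sampling.

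Growth factor genes of the insulin-like family had 2 of 12 members higher and 2 lower. IGF2 had 1135 and 2653 counts, a log2 ratio of 1.34 (1.24 to 1.44), and IGFBP2, a carrier of these factors, had 738 and 293 (-1.21, interval -1.42 to -1.02). Among genes of the unfolded protein and integrated stress responses 4 of 20 were lower and 1 higher, and with span centred none was lower and 2 were higher. Of 29 proliferation genes 2 were higher and 2 lower.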
